A study of Mus musculus with 12 samples.

Results

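Motile cilia beat because dynein motors bridge the doublet microtubules of a ciliary core called the axoneme, and the genes for that machinery are described here across 12 mouse lung RNA libraries. The set holds 42 genes, chosen by name with earlier results of these data known. Comparisons of the set with all tested genes are therefore descriptions. The set has 4 regulators of ciliated cell fate, 12 axonemal dynein heavy chains, 3 smaller dynein subunits and 5 docking, ruler and nexin link genes. It also has 3 radial spoke genes, 5 central apparatus genes and 3 tektins. The rest are 5 genes for further axonemal proteins and 2 genes for tubulin or a tubulin binding protein. All 42 were found by symbol among the 49585 genes of the deposited table, and all 42 reached a mean of at least 1 normalized unit in at least 1 group and entered the tests with 19017 genes in all.

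The lungs came from C57BL/6 mice in 4 groups of 3 libraries each. They were Has2+/- mice given ovalbumin (Has2+/- OVA), Has2+/- mice given saline (Has2+/- saline), wild-type mice given ovalbumin (WT OVA) and wild-type mice given saline (WT saline). Has2 encodes a hyaluronan synthase, and Has2+/- mice carry 1 deficient copy of it, while ovalbumin is an egg protein to which mice are sensitized so that inhaling it later inflames the airways. The OVA libraries are titled with a time of 24 and no unit, the labels call the Has2+/- mice KO without saying which part of the gene is altered, and nothing says that each library came from a separate mouse, so the p-values measure only the spread between these libraries.

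In the airway, motile cilia sit in large numbers on multiciliated cells and move mucus towards the throat. Outer dynein arms set the beat frequency and inner arms shape the stroke. Radial spokes and the central pair of microtubules steer the dyneins, and loss of many of these genes causes primary ciliary dyskinesia, a disease of airway clearance. The lung holds few multiciliated cells beside its alveolar cells, and in a whole-lung library fewer such cells and less RNA per cell cannot be told apart.

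Expression is given in normalized units, the authors' quantile-normalized gene counts. Every library therefore holds the same sorted values, each library sums to 6852201 units, and the depth of a library is unknown. Has2 itself was low, at 5.75 to 11.25 units in Has2+/- OVA, 7.42 to 8.17 in Has2+/- saline, 3.50 to 10.25 in WT OVA and 4.42 to 6.67 in WT saline lungs, with a difference of 0.39 on the log2 scale between Has2+/- and WT under saline (limma adjusted p = 0.978). Every Has2+/- saline library lay above every WT saline library, as in 7.04% of all tested genes, and the OVA groups overlapped. At these low levels Has2 did not show the 1 deficient copy of the label, so the genotypes used here rest on the labels alone. Over the 19017 tested genes, WT OVA library 3 and Has2+/- saline library 12 correlated below 0 with the other libraries of their own group on average (-0.19 and -0.16), against 0.11 to 0.31 for the other 10 libraries. Library 3 was nearest to WT saline (0.06) and library 12 to Has2+/- OVA (0.08). WT OVA libraries 1 and 2 were closer to Has2+/- OVA (0.29 and 0.28) than to their own group (0.15 and 0.11). Has2+/- saline libraries 10 and 11 were closer to WT saline (0.33 and 0.27) than to their own group (0.15 and 0.16). Those own-group averages include library 3 or 12. The 10 squamous epithelium genes (Krt13 and Krt4 first), which mark a surface that lung tissue lacks, summed to 23784 to 36498 units in libraries 3 (WT OVA), 4 and 6 (WT saline) and 10 and 11 (Has2+/- saline), to 1979 units in library 5 (WT saline) and to 26.8 to 347.5 units in the other 6. None of the 3 Has2+/- OVA libraries and 1 of the 3 WT OVA libraries was among the 5, against 2 of 3 in each saline group. The 8 airway basal cell genes (Krt5 and Krt14 first) separated the same 5 libraries, at 1079 to 1465 units against 64.0 to 214 units. For each comparison the counts past the adjusted threshold or the median are therefore given with and without those 5 libraries. Counts at an unadjusted p and counts of groups that did not overlap are given with all 12 libraries only.

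Markers that define ciliated cells were present in every library. The 8 defining genes, 3 of which (Foxj1, Rsph1 and Tppp3) are also among the 42, summed to 9785 to 11326 units in Has2+/- OVA, 10576 to 12305 in Has2+/- saline, 7566 to 10081 in WT OVA and 11429 to 12081 in WT saline lungs. Genes of 2 other sources of motile cilia were at or near 0. The 4 ependyma and choroid plexus genes (Ttr and Otx2 first) summed to at most 12.6 units in any library. The 7 germ cell genes (Prm1 and Prm2 first) summed to at most 10.5 units.

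After ovalbumin most cilia genes had higher values in Has2+/- lungs and lower values in WT lungs, with few of them past the test. In Has2+/- lungs 2 of the 42 rose at a limma adjusted p below 0.05, where 1.85% of all tested genes rose. The median change of the 42 was 0.16 on the log2 scale, against 0.01 over all tested genes, and 34 of the 42 changes were above 0. The count that fell in Has2+/- lungs was 0 by limma, where 0.952% of all tested genes fell, with 0 at an unadjusted p below 0.05, where 8.88% of all tested genes were lower, and 0 in the authors' deposited table. Another 11 genes, 13 in all, were higher there at an unadjusted p below 0.05, where 10.5% of all tested genes were. In WT lungs 7 of the 42 fell, where 8.05% of all tested genes fell, and 1 rose, where 8.65% of all tested genes rose. The WT median was -0.24, against -0.03 over all tested genes, and 36 of the 42 changes were below 0. At an unadjusted p below 0.05, 18 genes were lower and 1 higher in WT lungs, where 15.6% and 14.5% of all tested genes were. The authors' deposited table called 0 of the 42 higher with OVA in Has2+/- lungs, and 0 higher and 1 lower in WT lungs. A log2 change here is a difference of group means of log2(normalized unit + 1), ovalbumin minus saline.

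Calls of single genes depended on the libraries in the fit. The median OVA change of the set kept its sign in each genotype but not its size. In Has2+/- lungs it went from 0.16 in the main fit to 0.05 without the 5 libraries high in squamous epithelium genes. In Has2+/- lungs 0 to 4 genes rose when 1 library at a time was left out, 0 without library 4, 8, 9, 10 or 11, 1 without library 6 and 4 without library 1. Calls in all tested genes moved as well, with 351 higher there in the main fit. Without library 4, 8, 9, 10 or 11 that count was 253, 189, 437, 42 or 91. It was 241 without library 6 and 540 without library 1. In WT lungs 1 to 8 of the 42 fell, 1 without library 6 and 2 without library 1. Of all tested genes 1530 fell there in the main fit, 847 without library 6 and 735 without library 1. Without libraries 3 and 12 the counts among the 42 were 4 higher in Has2+/- and 7 lower in WT lungs, with medians of 0.22 and -0.21. Such calls in all genes were then 423 and 1706. Without the 5 libraries high in squamous epithelium genes, which leaves 1 saline library per genotype, 0 rose in Has2+/- and 1 fell in WT lungs, among 1 higher and 61 lower calls in all genes. The medians were then 0.05 in Has2+/- lungs, with 24 changes above 0, and -0.12 in WT lungs, with 33 changes below 0. With the squamous level as a covariate 0 rose in Has2+/- and 3 fell in WT lungs, and the medians were 0.12 and -0.26. Such calls in all genes were then 54 and 944. These 3 settings were chosen after seeing the data.

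The 42 values summed over the set moved the same way. They summed to 15505, 17167 and 17132 units in Has2+/- OVA lungs, against 14694, 14594 and 16042 units in Has2+/- saline lungs. In WT lungs they summed to 13439, 14256 and 14717 units after OVA, against 16707, 15913 and 17359 units after saline. The WT groups did not overlap, with every OVA library lower, while in Has2+/- lungs library 12 of the saline group lay above library 7 of the OVA group.

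**Figure D1:**
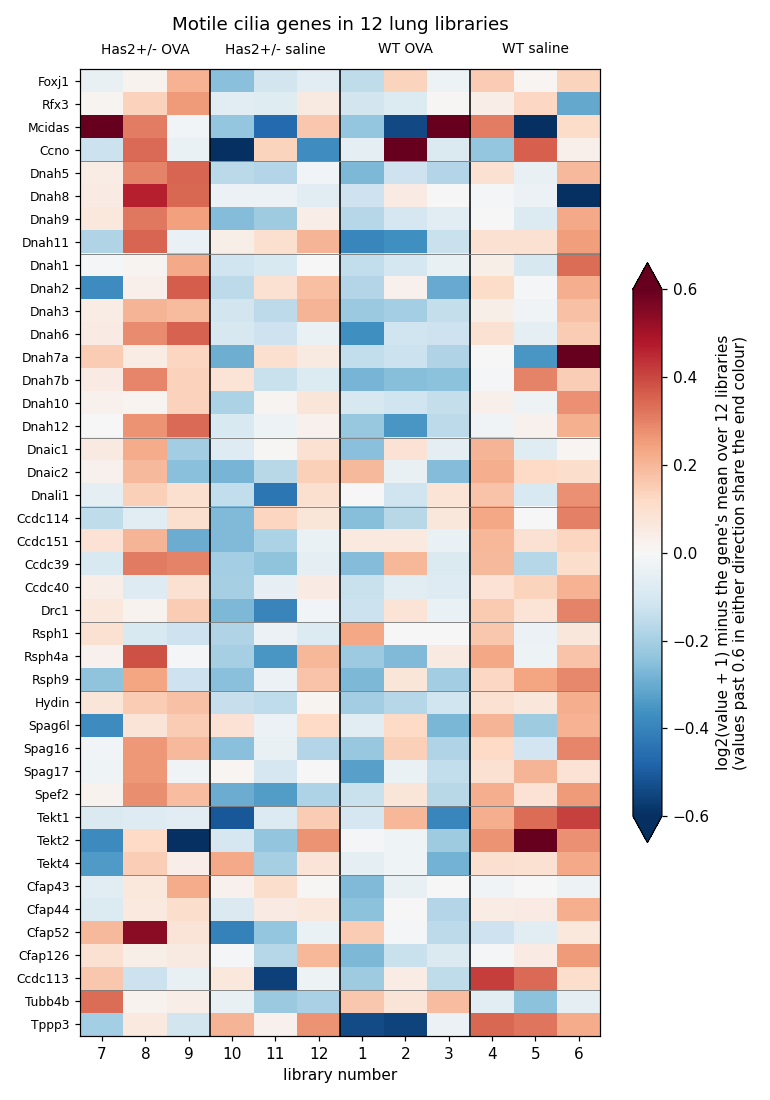
Level of each of the 42 genes (rows, grouped by role) in each of the 12 libraries (columns, by group and library number), as log2(normalized unit + 1) minus the gene's mean over the 12 libraries; values past 0.6 in either direction share the end colour. Most rows are blue in the 3 WT OVA libraries and in Has2+/- saline libraries 10 and 11 and red in Has2+/- OVA libraries 8 and 9 and WT saline libraries 4 and 6, while Tubb4b near the bottom is higher in all 6 OVA than in all 6 saline libraries.

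Levels per exon length spanned a wide range, with the tubulin group at the top and the fate regulator Mcidas at the bottom. Per kb of exon, averaged over the 12 libraries, Tppp3 stood at 1120 ± 221 units, Tubb4b at 598 ± 73.8 and Foxj1 at 290 ± 27.6 (SD, n = 12). Among the dynein heavy chains Dnah6 (83.0 units per kb) and Dnah5 (72.7 units per kb) were the most abundant, followed by Dnah10 at 46.2, Dnah9 at 45.8, Dnah12 at 41.3 and Dnah3 at 40.5 units per kb. Dnah7b, Dnah8 and Dnah7a were the lowest heavy chains, at 7.75, 7.17 and 5.65 units per kb, and Mcidas was the lowest of all 42 at 3.66.

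**Figure D2:**
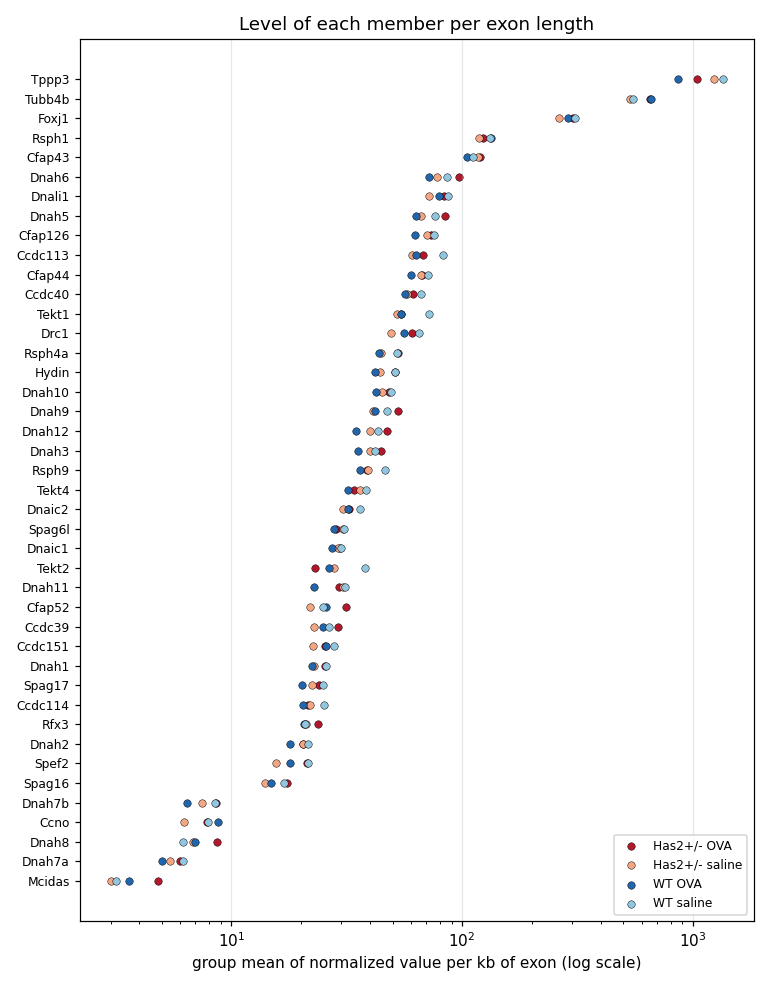
Group mean of each gene's normalized units per kb of exon (log scale), with genes ordered by their mean over the 12 libraries and one point per group. The 4 groups of a gene lie close together beside the range between genes, which runs over all 12 libraries from 3.66 for Mcidas to 1120 for Tppp3.

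None of the 4 regulators of ciliated cell fate passed the test in any comparison. Foxj1, the forkhead factor that switches on motile cilia genes, had 734, 769 and 874 in Has2+/- OVA lungs, against 636, 701 and 722 in Has2+/- saline lungs. In WT lungs Foxj1 had 682, 832 and 741 after OVA, against 842, 764 and 831 after saline. The Has2+/- groups did not overlap, with every OVA library higher, and the WT groups overlapped (log2 changes 0.21 and -0.12, limma adjusted p = 0.200 and 0.393). Rfx3, a factor that binds the X-box of ciliary gene promoters, had 239.7, 260.4 and 283 in Has2+/- OVA lungs, against 226, 225 and 246 in Has2+/- saline lungs. Its WT values were 219, 224 and 238 after OVA, against 244, 258 and 191 after saline, where 1 saline library lay below all OVA libraries. Mcidas, a coregulator that starts the multiciliated fate, was near the lowest level measured, with 16.2, 10.2 and 8 in Has2+/- OVA lungs, against 6.75, 5.58 and 9.17 in Has2+/- saline lungs. The WT values of Mcidas were 6.75, 5.25 and 13.8 after OVA, against 10.2, 3.50 and 8.83 after saline. Ccno, a cyclin-like protein needed to multiply the basal bodies, had 17.4, 24.5 and 18.6 in Has2+/- OVA lungs, against 12.2, 21.1 and 14.6 in Has2+/- saline lungs, and 18.3, 31 and 18 in WT OVA lungs, against 16.2, 24.8 and 19.6 in WT saline lungs. Groups of Mcidas and Ccno overlapped in both genotypes, and the 95% confidence intervals of their OVA changes were wide, at -0.36 to 1.52 for Mcidas and -0.29 to 0.97 for Ccno in Has2+/- lungs.

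Of the 4 outer arm heavy chains, the motors that drive the beat, Dnah5 changed in opposite directions in the 2 genotypes. Dnah5 had 1160.3, 1383 and 1433 in Has2+/- OVA lungs, against 1006, 995 and 1112 in Has2+/- saline lungs. In WT lungs Dnah5 had 934, 1032 and 996 after OVA, against 1200.2, 1093 and 1289 after saline. Every Has2+/- OVA library was above the Has2+/- saline libraries, and every WT OVA library was below the WT saline libraries. Dnah5 rose in Has2+/- lungs (log2 change 0.35, SE 0.0841, limma adjusted p = 0.0385) and fell in WT lungs (log2 change -0.27, SE 0.0841, limma adjusted p = 0.0355). Dnah9, which in human airway cilia pairs with DNAH5 towards the tip, had 757, 901 and 859 in Has2+/- OVA lungs, against 605, 624 and 744 in Has2+/- saline lungs, groups that did not overlap (log2 change 0.35, limma adjusted p = 0.0534). In WT lungs Dnah9 had 643, 676 and 693 after OVA, against 725, 685 and 848 after saline, and these overlapped. Dnah11, which in human cilia takes that place nearer the cell body, had 309.8, 315 and 370.1 in WT OVA lungs, against 433, 434 and 484 in WT saline lungs. It fell in WT lungs with no overlap (log2 change -0.44, SE 0.115, limma adjusted p = 0.0155), while its Has2+/- values, 358, 518 and 395 after OVA and 417, 434 and 469 after saline, overlapped (log2 change -0.07). The Dnah5 call was lost without libraries 4, 8, 9, 10 or 11 in Has2+/- lungs (limma adjusted p up to 0.739 over 22 alternative settings) and without libraries 1, 3, 4 or 6 in WT lungs (up to 0.624), and the Dnah11 call without libraries 1, 2 or 6 (up to 0.301). Dnah8, best known from sperm tails, did not pass the test in either genotype and averaged 233 ± 33.8 in Has2+/- OVA, 184 ± 2.02 in Has2+/- saline, 187 ± 11.6 in WT OVA and 165 ± 36.9 in WT saline lungs (SD, n = 3 each).

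Of the 8 inner arm heavy chains 7 had Has2+/- changes above 0, with 0 past the test in limma and 2, Dnah6 and Dnah12, at an unadjusted p below 0.05. Of all tested genes 51.0% were above 0 there, and 10.5% were higher at that unadjusted p. All 8 had WT changes below 0, from -0.40 to -0.19, with 3 past the test. In WT lungs 53.0% of all tested genes were below 0, and 8.05% fell past the test. Dnah6 had 1128, 1326 and 1392 in Has2+/- OVA lungs, against 1019, 999.6 and 1061 in Has2+/- saline lungs. In WT lungs Dnah6 had 846, 1002 and 1002 after OVA, against 1162, 1048 and 1211 after saline. As with Dnah5, OVA libraries were all above their saline libraries in Has2+/- lungs and all below them in WT lungs (log2 change 0.31, limma adjusted p = 0.0606 in Has2+/- and log2 change -0.27, SE 0.0867, limma adjusted p = 0.0451 in WT). Dnah12 had 491, 593 and 622 in Has2+/- OVA lungs, against 461, 481 and 500.4 in Has2+/- saline lungs, which overlapped by 1 pair of libraries. It fell in WT lungs, with 420.0, 385 and 440.2 after OVA, against 485, 501 and 570.3 after saline (log2 change -0.32, SE 0.0925, limma adjusted p = 0.0259). Dnah7b fell in WT lungs as well, with 126, 128 and 129 after OVA, against 152, 189 and 170.0 after saline (log2 change -0.40, SE 0.111, limma adjusted p = 0.0198). Its Has2+/- values were 159, 188 and 169 after OVA, against 163, 139.7 and 145 after saline, which overlapped. Dnah7a, a near copy of Dnah7b, had 79.2, 73.4 and 77.8 in Has2+/- OVA lungs, against 57.8, 76.1 and 73.8 in Has2+/- saline lungs, and 64.2, 64.9 and 62.7 in WT OVA lungs, against 71.2, 55.6 and 109.5 in WT saline lungs, with overlap in both genotypes. Of the 50-base stretches in Dnah7b exons 30.0% also occur in another gene, and of those in Dnah7a exons 38.6%, so reads may have been split between Dnah7a, Dnah7b and Dnah7c and the single values are uncertain. In fits without 1 library the WT calls were lost for Dnah6 without libraries 1, 4, 6, 8, 10, 11 or 12 (limma adjusted p up to 0.579 over 22 alternative settings), for Dnah12 without libraries 1, 2, 5 or 6 (up to 0.361) and for Dnah7b without libraries 1, 5 or 6 (up to 0.169). Dnah1, Dnah2, Dnah3 and Dnah10 did not pass the test in either genotype, and their WT changes lay between -0.26 for Dnah2 and -0.19 for Dnah1.

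**Figure D3:**
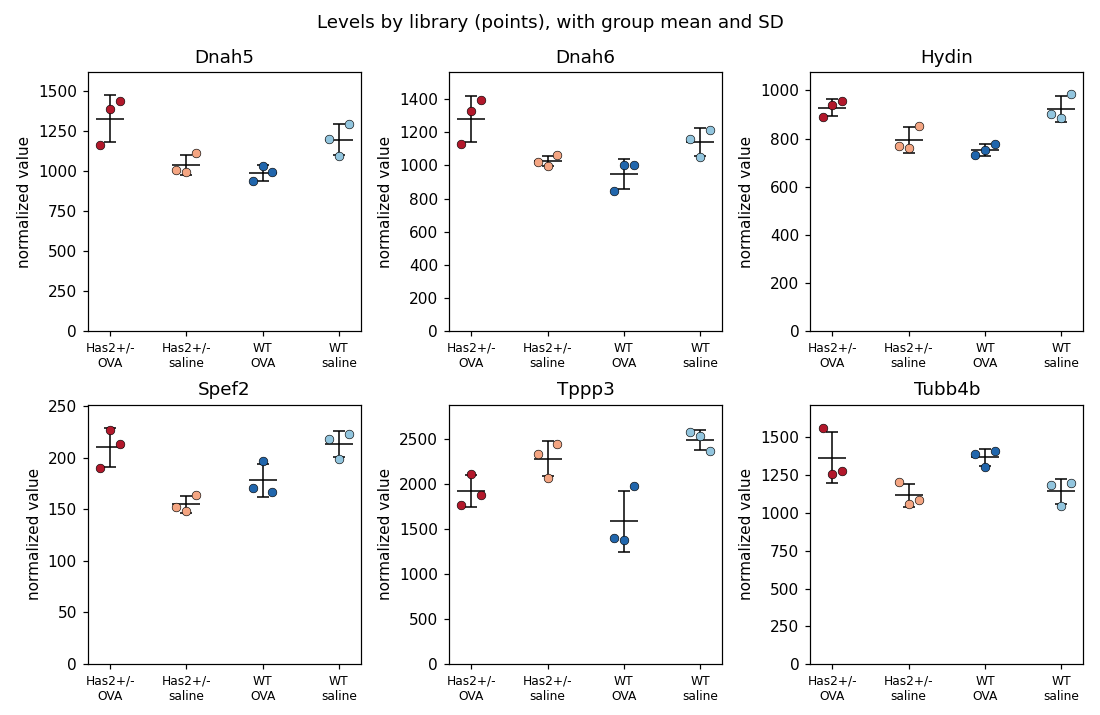
Normalized units of 6 genes in every library (points) by group, with the group mean and SD (bars); each panel starts at 0. In Dnah5, Dnah6, Hydin and Spef2 the Has2+/- OVA libraries lie above the Has2+/- saline libraries and the WT OVA libraries lie below the WT saline libraries, Tppp3 has its lowest mean in WT OVA lungs, and Tubb4b is higher after OVA in both genotypes.

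None of the 3 smaller dynein subunits and the 5 genes that place the arms or link the doublets passed the test in either genotype. Dnaic1, an intermediate chain of the outer arm, had 83.2, 93.5 and 69.2 in Has2+/- OVA lungs, against 75.8, 80.5 and 85.4 in Has2+/- saline lungs, and 67.1, 85 and 77 in WT OVA lungs, against 92.3, 76 and 80.8 in WT saline lungs, with overlap in both genotypes. Dnaic2, the other outer arm intermediate chain, and Dnali1, an inner arm light chain, had Has2+/- changes of 0.09 and 0.22 and WT changes of -0.18 and -0.13, and none of these 3 genes passed the test. Ccdc39, which with Ccdc40 forms the ruler that spaces the arms and spokes, had 178, 236 and 234 in Has2+/- OVA lungs, against 164, 160.4 and 182 in Has2+/- saline lungs. In WT lungs Ccdc39 had 159, 218 and 179 after OVA, against 218, 169 and 205 after saline, and the groups overlapped in both genotypes. Across Ccdc39, Ccdc40, the outer arm docking genes Ccdc114 and Ccdc151 and the nexin link gene Drc1, Has2+/- changes ran from -0.02 to 0.34 and WT changes from -0.30 to -0.09, with none past the test. Ccdc40 in WT lungs came nearest, with a log2 change of -0.24, groups that did not overlap and a limma adjusted p of 0.0565.

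In the central apparatus, which relays bending signals to the dyneins, Spef2 rose in Has2+/- lungs and Hydin fell in WT lungs. Hydin, a very large protein of a central pair projection, had 889, 939 and 956 in Has2+/- OVA lungs, against 768, 759.7 and 854 in Has2+/- saline lungs. In WT lungs Hydin had 731, 751 and 779 after OVA, against 902, 885 and 984 after saline. The groups did not overlap in either genotype, with OVA higher in Has2+/- lungs (log2 change 0.23, limma adjusted p = 0.0809) and lower in WT lungs (log2 change -0.29, SE 0.0678, limma adjusted p = 0.00834). Spef2, a central pair protein needed for cilia and sperm tails, had 190.2, 227 and 213 in Has2+/- OVA lungs, against 152, 148 and 164 in Has2+/- saline lungs. In WT lungs Spef2 had 170.4, 197 and 167 after OVA, against 218, 199 and 224 after saline. Again no groups overlapped: Spef2 rose in Has2+/- lungs (log2 change 0.43, SE 0.103, limma adjusted p = 0.0370), and its WT change was -0.26 (limma adjusted p = 0.0952). The Hydin call in WT lungs was lost without library 6 (limma adjusted p up to 0.270 over 22 alternative settings), and the Spef2 call in Has2+/- lungs without libraries 4, 6, 7, 8, 9, 10, 11 or 12 (up to 0.735). Spag6l, Spag16 and Spag17, further central apparatus genes, did not pass the test, with Has2+/- changes of -0.11, 0.30 and 0.10 and WT changes of -0.14, -0.19 and -0.30.

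The radial spoke head genes gave no call. Rsph1 had 185, 163 and 159 in Has2+/- OVA lungs, against 153, 169 and 164 in Has2+/- saline lungs, and 204, 173 and 174 in WT OVA lungs, against 194, 169 and 182 in WT saline lungs, with overlap in both genotypes and log2 changes of 0.06 and 0.01. The Has2+/- changes of Rsph4a and Rsph9 were 0.25 and -0.00, against WT changes of -0.27 and -0.35. Tektins, filament proteins inside the doublet walls, had medians below 0 in both genotypes, at -0.09 in Has2+/- and -0.42 in WT lungs, with none past the test. Tekt1 had 87.2, 87.7 and 88.5 in Has2+/- OVA lungs, against 64.9, 87.4 and 103 in Has2+/- saline lungs, where the OVA values sat inside the saline range. Its WT values were 86.2, 107 and 70.4 after OVA, against 108, 117 and 124 after saline, without overlap (log2 change -0.42, limma adjusted p = 0.108). Among the 4 CFAP genes and Ccdc113, Cfap126, known as Flattop and active at the basal body, had 132, 128 and 129 in Has2+/- OVA lungs, against 123, 110.2 and 143 in Has2+/- saline lungs, which overlapped. The WT values of Cfap126 were 103, 113 and 117 after OVA, against 124, 128 and 148 after saline, without overlap. Cfap52, an inner microtubule protein, had the largest Has2+/- change of this role, 0.50, with groups that did not overlap and a limma adjusted p of 0.121.

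In WT lungs Tppp3 fell and Tubb4b rose with OVA, the 2 most abundant of the 42 genes per kb of exon. Tppp3, a tubulin polymerization promoting protein abundant in airway ciliated cells, had 1763, 2115 and 1883 in Has2+/- OVA lungs, against 2340.2, 2065 and 2446 in Has2+/- saline lungs. In WT lungs Tppp3 had 1398, 1380.3 and 1978 after OVA, against 2576, 2533 and 2367 after saline. Tppp3 fell in WT lungs (log2 change -0.67, SE 0.125, limma adjusted p = 0.00464) with no overlap, and its Has2+/- change had the same sign with overlap of 1 pair of libraries (log2 change -0.25, limma adjusted p = 0.305). The WT call of Tppp3 held in 22 of 22 alternative settings (limma adjusted p up to 0.0449). It was also the 1 gene of the 42 with an FDR p below 0.05 in the authors' deposited table, 0.000941 for OVA against saline in WT, where 3.45% of the 49585 genes were below 0.05. Tubb4b, a beta tubulin of axonemes that other cells use too, had 1564, 1260.5 and 1275 in Has2+/- OVA lungs, against 1204, 1062 and 1084 in Has2+/- saline lungs. Its WT values were 1389, 1307 and 1412 after OVA, against 1188, 1046 and 1196 after saline. Every OVA library of Tubb4b was above the saline libraries of its genotype, and Tubb4b rose in WT lungs (log2 change 0.26, SE 0.0846, limma adjusted p = 0.0434), with a similar Has2+/- change of 0.29 (limma adjusted p = 0.0766). Of the 50-base stretches in Tubb4b exons 37.8% also occur in another gene, mostly its pseudogenes, so its value is uncertain, and its WT call was lost without libraries 1, 2, 3, 4, 5, 6, 11 or 12 (limma adjusted p up to 0.278 over 22 alternative settings).

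Averaged over both genotypes, OVA left 3 of the 42 past the test. Tubb4b rose (log2 change 0.27, limma adjusted p = 0.00386), where 11.4% of all tested genes rose. Tppp3 fell (log2 change -0.46, limma adjusted p = 0.00348) and so did Dnah11 (log2 change -0.26, limma adjusted p = 0.0325), where 11% of all tested genes fell. The Dnah11 call was lost without libraries 1, 2, 6, 7, 9, 11 or 12 (limma adjusted p up to 0.278 over 21 alternative settings), and those of Tubb4b and Tppp3 held in 20 of 21 settings each. The median average change of the 42 was -0.04, against -0.01 over all tested genes.

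**Figure D4:**
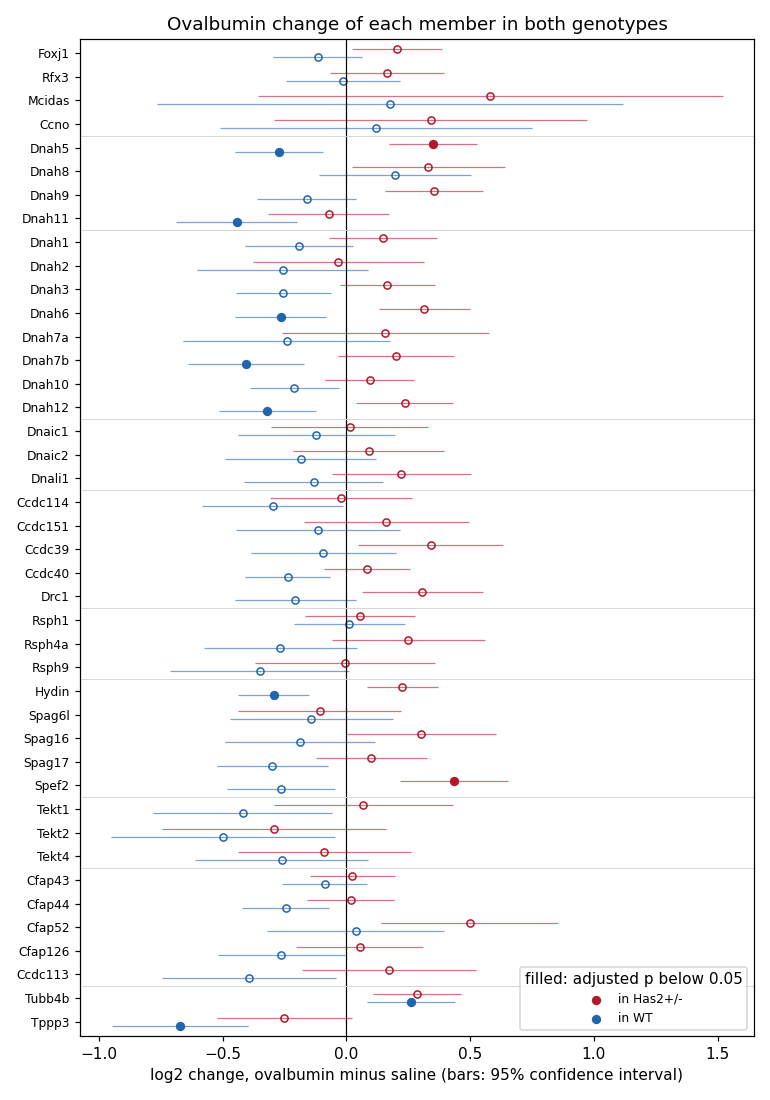
Log2 change, OVA minus saline, of each of the 42 genes in Has2+/- lungs (red) and in WT lungs (blue), with 95% confidence intervals from limma; filled points passed an adjusted p of 0.05. Red points lie right of 0 for 34 genes and blue points left of 0 for 36, and in every gene the red point lies to the right of the blue one.

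Groups that did not overlap were counted over the set as a measure free of the test. In Has2+/- lungs 11 of the 42 genes had every OVA library above every saline library, where 13.2% of all tested genes did, and 0 had every OVA library below, where 11% did. In WT lungs 20 of the 42 had every OVA library below every saline library, where 17.6% of all tested genes did, and 1, Tubb4b, had every OVA library above, where 16.2% did. With 3 libraries a group such separation is common among all genes.

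Between the labelled genotypes, which the level of Has2 did not bear out, the set was lower in Has2+/- than in WT lungs under saline by its median, with no single gene past the test, and higher under OVA, where 4 genes passed. Under saline 0 of the 42 were called in either direction by limma, where 0.0105% of all tested genes were higher and 0% lower, while 8 were lower and 0 higher at an unadjusted p below 0.05, where 3.01% and 2.61% of all tested genes were. The median of the 42 was -0.17, against 0.00 over all tested genes, and 38 of the 42 differences were below 0. In 9 of the 42 every Has2+/- saline library was below every WT saline library, where 6.32% of all tested genes were, and in 1, Cfap43, every one was above, where 7.04% were. Spef2 differed most by its p under saline (log2 difference -0.46, limma adjusted p = 0.382), followed by Drc1 at -0.41 and Hydin at -0.22 (limma adjusted p = 0.666 and 0.731). The authors' deposited table called 0 of the 42 here and gave 39 of them as lower in Has2+/-. Without the 5 libraries high in squamous epithelium genes, which leaves 1 library in each saline group, this median was 0.01 and 22 of the 42 differences were above 0.

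Under OVA, 4 of the 42 were higher in Has2+/- than in WT lungs, where 0.589% of all tested genes were. They were the heavy chains Dnah5 (log2 difference 0.42, limma adjusted p = 0.0293), Dnah6 (log2 difference 0.43, limma adjusted p = 0.0294) and Dnah12 (log2 difference 0.45, limma adjusted p = 0.0336), and Hydin (log2 difference 0.30, limma adjusted p = 0.0476). Their values by library are those given above, and in each of the 4 every Has2+/- OVA library lay above every WT OVA library. That held for 13 of the 42, where 10.4% of all tested genes did so, and 0 of the 42 lay below throughout, where 7.13% did. The median of the 42 was 0.18, against 0.01 over all tested genes. All 12 heavy chains differed in the same direction, from 0.16 to 0.45 with a median of 0.33, and the other 30 genes ran from -0.23 to 0.42 with a median of 0.11. The count lower in Has2+/- was 0 by limma, where 0.363% of all tested genes were lower, with 0 at an unadjusted p below 0.05, where 6.43% of all tested genes were lower. Another 10 genes, beside the 4, were higher at an unadjusted p below 0.05 (14 in all, where 9.62% of all tested genes were), and the authors' deposited table called 0 of the 42 in either direction. In fits without 1 library 0 to 8 genes were higher, 0 without library 1, 4, 8 or 9, 2 without library 2, 5 or 11 and 8 without library 7. Of all tested genes 112 were higher in the main fit. Without library 1, 4, 8 or 9 that count was 32, 48, 11 or 19. It was 73, 52 or 60 without library 2, 5 or 11 and 462 without library 7. The call was lost for Dnah5 without libraries 1, 3, 4, 8 or 9, for Dnah6 without libraries 1, 4, 8 or 9, for Dnah12 without libraries 1, 2, 4, 5, 8, 9 or 11 and for Hydin without libraries 1, 2, 3, 4, 5, 6, 8, 9, 10, 11 or 12. Over 22 alternative settings the highest limma adjusted p was 0.350 for each of the 4. Without the 5 libraries high in squamous epithelium genes, 1 of which is in these 2 groups, 0 were called among 0 in all genes, and the median was 0.19 with 34 differences above 0. This comparison shares the WT OVA and Has2+/- OVA libraries with the OVA comparisons above, so its values are not further evidence for them.

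The difference between the OVA changes of the 2 genotypes, Has2+/- minus WT, was above 0 in 42 of the 42 genes, where 52.3% of all tested genes were above 0. Its median was 0.35, against 0.02 over all tested genes. Lists of other lung cells, described below, shifted as well. The median was 0.38 for club cell and 0.21 for alveolar type 1 genes, each with 7 of 8 above 0. It was 0.13 for alveolar type 2 and 0.14 for goblet cell genes. Medians below 0 were found for leukocyte (-0.39), airway basal cell (-0.36) and squamous epithelium genes (-0.32). By limma 0 of the 42 passed at an adjusted p of 0.05, where 0.00526% of all tested genes passed with a higher change, and 21 had an unadjusted p below 0.05, where 5.1% of all tested genes did. The smallest adjusted p was that of Hydin (log2 difference 0.52, SE 0.0959, limma adjusted p = 0.255). The next were Dnah5 (0.62, limma adjusted p = 0.281), Spef2 (0.70, limma adjusted p = 0.281) and Dnah6 (0.58, limma adjusted p = 0.281). Over the 12 heavy chains the median difference was 0.41, and over the other 30 genes 0.32. Without library 7 (Has2+/- OVA) 4 of the 42 passed, among 10 tested genes that passed with a higher change. Without any other single library 0 of the 42 did. Without the 5 libraries high in squamous epithelium genes 33 of the 42 differences were above 0 and the median was 0.14, and without libraries 3 and 12 it was 41 genes and 0.43.

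Dnah5, Dnah6, Hydin and Spef2 were the 4 of the 42 in which all Has2+/- OVA libraries lay above and all WT OVA libraries below the saline libraries of their genotype, as 76 of the 19017 tested genes (0.4%) did. The opposite pattern was seen in 0 of the 42 and in 25 of all tested genes (0.131%). Dnah5 spans chr15:28203752-28472052 of mm10, Dnah6 chr6:73017606-73221651, Hydin chr8:110266977-110610253 and Spef2 chr15:9578193-9748868, as annotated in GENCODE M21. Their promoters are shown because these 4 genes moved together, with that of Tubb4b, which rose in both genotypes, beside them. Each window is 300 bases from RefSeq on GRCm38.p6, with 250 bases before and 50 after the gene's start, and capitals mark a match to 1 of 3 motifs on either strand: GTTGCC, a core that RFX factors bind, the longer X-box of GTNNCC, any 3 bases and GNNAC, which can hold that core at either end, or TGTTTA, a forkhead core.
Dnah5, chr15:28203516-28203815, plus strand: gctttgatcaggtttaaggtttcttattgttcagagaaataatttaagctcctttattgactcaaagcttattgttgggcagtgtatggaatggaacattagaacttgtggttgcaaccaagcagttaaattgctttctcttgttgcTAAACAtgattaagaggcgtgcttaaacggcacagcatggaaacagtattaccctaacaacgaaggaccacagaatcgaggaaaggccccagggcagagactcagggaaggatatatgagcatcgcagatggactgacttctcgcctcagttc
Dnah6, chr6:73221582-73221881, minus strand: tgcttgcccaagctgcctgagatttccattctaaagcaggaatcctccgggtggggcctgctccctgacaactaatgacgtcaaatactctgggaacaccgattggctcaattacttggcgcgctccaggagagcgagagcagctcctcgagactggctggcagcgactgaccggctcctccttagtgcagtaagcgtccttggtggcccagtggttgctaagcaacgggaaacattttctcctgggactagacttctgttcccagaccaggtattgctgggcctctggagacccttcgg
Hydin, chr8:110266727-110267026, plus strand: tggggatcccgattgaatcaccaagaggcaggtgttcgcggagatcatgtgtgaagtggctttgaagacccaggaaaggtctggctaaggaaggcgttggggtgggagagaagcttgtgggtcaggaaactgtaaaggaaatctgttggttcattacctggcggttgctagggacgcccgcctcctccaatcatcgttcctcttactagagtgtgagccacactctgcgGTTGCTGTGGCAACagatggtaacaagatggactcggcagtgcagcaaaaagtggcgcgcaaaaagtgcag
Spef2, chr15:9748819-9749118, minus strand: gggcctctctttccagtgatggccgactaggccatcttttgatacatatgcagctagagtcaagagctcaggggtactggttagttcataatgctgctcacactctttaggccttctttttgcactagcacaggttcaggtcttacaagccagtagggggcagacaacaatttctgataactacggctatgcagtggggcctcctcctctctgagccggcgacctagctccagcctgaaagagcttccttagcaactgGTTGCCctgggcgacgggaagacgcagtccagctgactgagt
Tubb4b, chr2:25224653-25224952, minus strand: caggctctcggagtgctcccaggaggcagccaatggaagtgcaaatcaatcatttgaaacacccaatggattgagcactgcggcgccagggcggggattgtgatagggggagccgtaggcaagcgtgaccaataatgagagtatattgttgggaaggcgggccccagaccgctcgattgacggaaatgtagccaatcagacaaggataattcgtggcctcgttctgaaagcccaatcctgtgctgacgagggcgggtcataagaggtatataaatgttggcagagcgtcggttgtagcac
The Hydin window holds an X-box at base 230 with the RFX core inside it at base 238, counted from the first base of the window. Both Hydin matches read on the strand opposite to the printed one. The Spef2 window holds an RFX core at base 259 on the printed strand. The Dnah5 window holds a forkhead core at base 148 on the opposite strand. In the Dnah6 and Tubb4b windows these letters do not occur, which says nothing about the factors.

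RFX motifs were more frequent in the promoters of the set than among all genes, counted as letters and not as binding. A window was at hand for 37 of the 42 genes, and Foxj1, Dnah3, Rsph1, Rsph4a and Tppp3 have none here. The core GTTGCC lay in a window of 17 of the 37 genes (45.9%), against 14.1% of 27025 genes with a window. The X-box lay in 13 of the 37 (35.1%), against 5.26% of all genes, and in 8 of the 42 windows of these 37 genes the core lies within an X-box, so the 2 counts overlap. At least 1 of the 2 was found in 22 of the 37 genes. The forkhead core was found in 8 of the 37 (21.6%), among them Dnah5, Dnah8, Dnah11, Dnah1 and Dnah12, against 15.1% of all genes. Where a gene has more than 1 window, a match in any of them was counted.

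The genes varied in how closely they followed each other over the 12 libraries. The Pearson correlation of a gene's log2 values with the mean of the other 41 had a median of 0.63 and was above 0.5 for 26 genes and below it for 16. It was 0.94 for Hydin, 0.90 for Dnah5, 0.88 for Dnah9, 0.86 for Dnah3 and 0.85 for Spef2, over 12 libraries that share their normalization and their groups. It was lowest for Tubb4b (-0.23), Rsph1 (-0.10) and Dnah8 (0.02), and the fate regulators Ccno, Mcidas and Rfx3 were at 0.15, 0.17 and 0.19. Among 14137 genes outside all lists with a mean of at least 10 units, Pias2 (0.90), Spag8 (0.88), Ric8b (0.88) and Rp1 (0.87) were among those most like the mean of the 42.

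In 4 of 6 lists of other cilia genes the median change was above 0 in Has2+/- lungs and below 0 in WT lungs, with few calls. The multiciliated cell programme had medians of 0.12 in Has2+/- and 0.15 in WT lungs, and intraflagellar transport medians of -0.02 and -0.18. Of 39 tested radial spoke, nexin link and central apparatus genes outside the 42, 1 fell in WT lungs, Cfap20, a protein at the seam of the doublet (log2 change -0.39, limma adjusted p = 0.0312), and 0 changed in Has2+/- lungs, with 4 higher at an unadjusted p below 0.05. Their medians were 0.15 in Has2+/- and -0.20 in WT lungs, and 9 of them were lower in WT lungs at an unadjusted p below 0.05. Of all tested genes 8.05% fell in WT lungs. At an unadjusted p below 0.05, 10.5% of all tested genes were higher in Has2+/- lungs. In WT lungs 14.5% were higher and 15.6% lower at that level. Of 13 tested dynein arm assembly factors, cytoplasmic chaperones that build the arms, 0 passed in either genotype by limma, with 1 higher in Has2+/- and 1 lower in WT lungs at an unadjusted p below 0.05 and medians of 0.17 and -0.08. Of 15 other dynein arm and docking genes 0 passed in either genotype by limma, with 3 higher in Has2+/- lungs and 1 higher and 2 lower in WT lungs at an unadjusted p below 0.05 and medians of 0.19 in Has2+/- and -0.13 in WT lungs, and Dynll1, a light chain that many complexes share, rose in the average of both (0.24, limma adjusted p = 0.0282).

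Of 26 other airway ciliated cell genes 3 fell and 1 rose in WT lungs, and 1 rose in Has2+/- lungs, where 8.05% and 8.65% of all tested genes fell and rose in WT and 1.85% rose in Has2+/- lungs, with medians of 0.19 in Has2+/- and -0.14 in WT lungs. Sec14l3, a lipid binding protein of airway ciliated cells, averaged 5701 ± 946 in WT OVA lungs, against 7711 ± 319 in WT saline lungs (SD, n = 3 each; limma adjusted p = 0.0128). The other 2 that fell were Lrrc23, a radial spoke protein (-0.42, limma adjusted p = 0.0288), and Lrriq1, named after its values were seen (-0.46, limma adjusted p = 0.0373). Tuba1a, an alpha tubulin not limited to cilia, rose in both genotypes, by 0.37 in Has2+/- and 0.38 in WT lungs (limma adjusted p = 0.0230 and 0.00507), as its partner subunit gene Tubb4b did in WT lungs. Cdhr4, a cadherin-related gene, rose in the average of both genotypes (0.32, limma adjusted p = 0.0206).

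Of 29 tested genes of intraflagellar transport, which carries parts along both motile and primary cilia, 2 were higher in Has2+/- than in WT lungs under OVA, where 0.589% of all tested genes were. Dync2h1, the heavy chain of the return motor, averaged 503 ± 30.8 in Has2+/- OVA lungs, against 381 ± 19.8 in WT OVA lungs (SD, n = 3 each; log2 difference 0.40, limma adjusted p = 0.0215). Ift80, a subunit of the outward train, averaged 242 ± 17.7 in Has2+/- OVA lungs, against 183 ± 3.29 in WT OVA lungs (log2 difference 0.40, limma adjusted p = 0.0468). In WT lungs 2 of 29 tested genes fell with OVA, where 8.05% of all tested genes did, Ift172 (-0.28, limma adjusted p = 0.0138) and Dync2h1 (-0.24, limma adjusted p = 0.0362), and in the average of both genotypes Ift172 and Kifap3, a subunit of the outward kinesin, fell (-0.17 and -0.23, limma adjusted p = 0.0254 and 0.0382). In Has2+/- lungs 0 of 29 changed by limma, with 0 at an unadjusted p below 0.05.

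The programme that makes a multiciliated cell, and the Notch signals that hold it back, were measured as 14 and 12 tested genes. Averaged over genotypes 4 of the 14 programme genes rose, where 11.4% of all tested genes did: Gmnc, which acts above Mcidas (0.93, limma adjusted p = 0.0255), the centriole genes Plk4 (0.51, limma adjusted p = 0.0277) and Cep152 (0.27, limma adjusted p = 0.0206), and Tfdp1, a partner of E2F factors (0.30, limma adjusted p = 0.0124). Plk4, named after its values were seen, Cep152 and Tfdp1 also serve dividing cells. Gmnc averaged 23.3 ± 7.54 in Has2+/- OVA lungs, against 9.78 ± 2.65 in Has2+/- saline lungs, and 21.1 ± 9.88 in WT OVA lungs, against 12.6 ± 6.42 in WT saline lungs (SD, n = 3 each). In WT lungs alone Tfdp1 rose (0.47, limma adjusted p = 0.0103) and Rfx2, a relative of Rfx3, fell (-0.42, limma adjusted p = 0.0195). Of the Notch genes 2 fell in each genotype, where 0.952% of all tested genes fell in Has2+/- and 8.05% in WT lungs. They were the ligand Dll4 (-0.56 in Has2+/- and -0.46 in WT lungs, limma adjusted p = 0.0129 and 0.00823) and the receptor Notch3 (-0.35 and -0.50, limma adjusted p = 0.0493 and 0.00216), both also used by blood vessel cells. Notch2 and the target Hey1 fell in the average of both genotypes (-0.14 and -0.48, limma adjusted p = 0.0112 and 0.0149).

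Genes of other lung cells, airway and alveolar, moved with OVA beside the cilia genes. The 8 club cell genes (Scgb1a1 and Scgb3a1 first) summed to 85585 to 100908 units in Has2+/- OVA lungs, against 91722 to 106958 in Has2+/- saline lungs, and to 69524 to 84128 units in WT OVA lungs, against 92396 to 107796 in WT saline lungs. The 8 alveolar type 1 cell genes (Ager and Hopx first) summed to 28497 to 34870 units in Has2+/- OVA lungs, against 31256 to 35472 in Has2+/- saline lungs, and to 24449 to 30852 units in WT OVA lungs, against 34106 to 34828 in WT saline lungs. For both lists, as for the cilia genes, the WT groups did not overlap and the Has2+/- groups did. The direction in Has2+/- lungs differed. Mean sums there were lower after OVA for club cell (91944 against 100430 units) and alveolar type 1 genes (30677 against 33698 units). For the 42 cilia genes the mean sum was higher (16601 against 15110 units), as it was for the all epithelium genes (8146 against 7337 units). The 8 genes that define ciliated cells had a lower mean sum after OVA (10450 against 11343 units), though 6 of their 8 log2 changes were above 0. In WT lungs 4 of the 8 alveolar type 1 genes fell and 1 rose, where 8.05% and 8.65% of all tested genes did. The 8 goblet cell genes (Muc5ac and Muc5b first) summed to 13677 to 23007 units in Has2+/- OVA lungs, against 2992 to 4881 in Has2+/- saline lungs, and to 8303 to 16800 units in WT OVA lungs, against 2899 to 3851 in WT saline lungs. The 8 leukocyte genes (Ptprc and Laptm5 first) summed to 7249 to 9803 units in Has2+/- OVA lungs, against 6286 to 7372 in Has2+/- saline lungs, and to 8229 to 11483 units in WT OVA lungs, against 5668 to 7066 in WT saline lungs. The 8 genes of all epithelium (Epcam and Cdh1 first) summed to 7914 to 8472 units in Has2+/- OVA lungs, against 7020 to 7900.5 in Has2+/- saline lungs, and to 7644 to 8397 units in WT OVA lungs, against 7673 to 8018 in WT saline lungs. Groups overlapped in both genotypes for the 8 alveolar type 2 cell genes (Sftpc and Sftpb first), at 132439 to 172053 units over the 12 libraries, and for the 8 airway cartilage genes (Acan and Col2a1 first), at 94.8 to 147 units. These sums cannot tell a change in cell number from a change in RNA per cell. Whether the makeup of the lung plays a part in the cilia gene values was not tested.

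**Figure D5:**
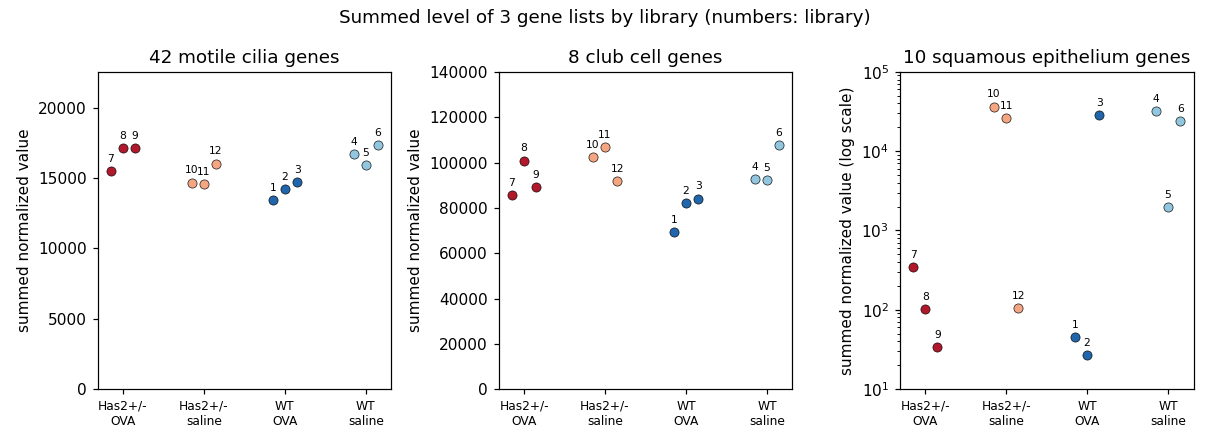
Summed normalized units per library of the 42 motile cilia genes, 8 club cell genes and 10 squamous epithelium genes (log scale in the last panel), by group, with library numbers beside the points. The cilia and club cell sums are lower in all WT OVA than in all WT saline libraries, and the squamous sums set libraries 3, 4, 6, 10 and 11, at 23784 to 36498 units, apart from the rest.

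Transcript length moved with part of the pattern. The heavy chains and Hydin are among the longest transcripts, and 13 of the 42 genes have at least 12 kb of exon. Among the 801 other tested genes of that length the median WT change with OVA was -0.11, against 0.06 for 1870 other genes under 2 kb. The 13 long cilia genes had a WT median of -0.26, and the 8 cilia genes under 2 kb one of -0.37. Between genotypes under OVA the 801 long genes had a median difference of 0.09 and the 13 long cilia genes 0.32, and over the 42 genes that difference correlated with log2 exon length at a Pearson r of 0.62, given as a description. For the difference between OVA changes the long genes stood at 0.08 and the long cilia genes at 0.42, and the part of length in these values was not tested. Exons of 17 of the 42 genes overlap exons of another gene on the opposite strand, such as Ttc14 for Ccdc39 and Lyrm1 for Dnah3, and whether the counting used strand is not given in the sources used here.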

How the data were processed

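RNA was extracted with Trizol from flash-frozen lung and 500 ng of it went into directional libraries sequenced on a NextSeq500, per the labels' protocols, which name both rRNA depletion and poly-A purification. The submitters' processing notes name mm10, and for the aligner and counter the sources used here give no name. The authors deposited 1 normalized signal per gene and library. In that table the sorted values of the 12 libraries are identical (largest difference 0) and all values are multiples of 1/12 within 1e-06, as quantile normalization of whole counts gives, so no counting interval can be stated. Of the 49585 genes 26190 are listed at 0 in every library, and 12 further columns of transformed values were not used. The authors' deposited table also holds fold changes, read here as a signed score with the second group over the first, and FDR-corrected p-values from the EDGE test, per the file headers.

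Columns carry a group code and a running library number that matches no title, so libraries are named by that number: 1 to 3 are WT OVA, 4 to 6 WT saline, 7 to 9 Has2+/- OVA and 10 to 12 Has2+/- saline.

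Values were taken as log2(value + 1), since a count test does not apply, and a fold change on that scale understates the change of low genes. limma 3.58.1 (R 4.3.3) with trend and robust variance was fitted to all 12 libraries and the 19017 genes whose mean reached 1 in 1 or more groups, with 1 mean per group and 8 residual degrees of freedom. Tests were two-sided, with Benjamini-Hochberg adjustment within each comparison and a threshold of 0.05, and the fit was tested on simulated data. The members and all gene lists were chosen with earlier results of these data known. Values in every library are given for members past the threshold in any comparison and for 16 members chosen as representatives of their roles, other pathway genes are named where they passed the threshold (at most 4 per list), and cell type lists are given by their summed level. Deup1 and Cfap65 of the pathway lists were not found by symbol. Of the genes most like the mean of the set 1, and of the cell type lists 1, is not reported here. Exon lengths and coordinates come from GENCODE M21, which matched 49326 of the 49585 genes by identifier.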

Additional observations from a re-analysis of the deposited data

Results flagged for a closer look

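In 4 of the 42 genes every Has2+/- OVA library lay above and every WT OVA library below the saline libraries of its genotype, as in 0.4% of all tested genes. The difference between the 2 OVA changes, Has2+/- minus WT on the log2 scale, was 0.62 for Dnah5 (limma adjusted p = 0.281), 0.58 for Dnah6 (limma adjusted p = 0.281), 0.52 for Hydin (limma adjusted p = 0.255) and 0.70 for Spef2 (limma adjusted p = 0.281). None of the 4 differences passed the threshold of 0.05 after adjustment over all tested genes.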

How the results depend on the processing

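The results were recomputed under 22 alternatives, 12 of which left out 1 library and 3 of which were chosen after seeing the data, and under them no called gene changed direction, while of the 6 medians only that between genotypes under saline did. Depth is unknown and limits the low genes most. No paired analysis was possible because the columns carry no replicate number of the titles.

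Without limma's trend and robust options the members called were 0 higher with OVA in Has2+/- lungs, and 0 higher and 3 lower in WT lungs. They were 0 higher in Has2+/- than in WT lungs under OVA, and 1 lower in the average of both genotypes. Of all tested genes 44 were then higher in Has2+/- lungs, against 351 in the main fit. In WT lungs 1182 were higher and 963 lower, against 1645 and 1530. Between genotypes under OVA 5 were higher, against 112, and on average 1615 were lower, against 2094. With no filter on low values the members called were 1 higher in Has2+/- lungs, 0 higher in WT lungs and 1 higher between genotypes under OVA. Of 23395 tested genes 253 were then higher in Has2+/- and 1550 higher in WT lungs. With only the compared groups in the fit the members called were 0 higher in Has2+/- lungs and 0 higher between genotypes under OVA. Of all tested genes 284 were then higher in Has2+/- lungs. With the squamous level as a covariate the members called were 0 higher in Has2+/- lungs, 3 lower in WT lungs and 0 lower on average. Such calls in all genes were 54 in Has2+/- and 944 in WT lungs. Without libraries 3 and 12 the members called were 4 higher in Has2+/- lungs, 0 higher in WT lungs and 1 higher between genotypes under OVA. All tested genes then gave 423 higher in Has2+/- and 1664 higher in WT lungs. Without the 5 libraries high in squamous epithelium genes they were 0 higher in Has2+/- lungs, 0 higher and 1 lower in WT lungs, 0 higher between genotypes under OVA, and 0 higher and 1 lower on average. Under that last setting the medians were 0.05 in Has2+/- lungs, -0.12 in WT lungs, 0.01 between genotypes under saline and 0.14 for the difference between OVA changes. The causes were not tested beyond these fits, and the last setting has 5 fewer libraries.

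Leaving out 1 library at a time gave 0 to 4 higher in Has2+/- lungs, 0 to 1 higher and 1 to 8 lower in WT lungs, 0 to 8 higher between genotypes under OVA, 0 to 4 for the difference between OVA changes, and 1 to 2 higher and 1 to 3 lower on average. Other counts stayed at 0. Pseudocounts of 0.1 and 5, a group mean of at least 10 and median-of-ratios scaling kept each count within 1.5 times its value.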
